A study of Schizosaccharomyces pombe with 4 samples.

Results

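The nuclear genes of the mitochondrial respiratory chain and of the ATP synthase were examined in the fission yeast Schizosaccharomyces pombe, in cells overexpressing Atf1 and in cells with an empty vector. Members were all S. pombe probe sets whose annotated symbol was that of a subunit, a ubiquinone synthesis enzyme or an assembly factor (the atp, cox, qcr, sdh, coq and cbp series with cyt1, cyc1, rip1, cob1, nde1, nde2, shy1, sco1, oxa101 and oxa102). The rule found 56 genes, each read by 1 probe set, among the 2899 S. pombe genes named on the array. None of the 56 has the symbol cob1, nde1 or nde2. The rule used symbols only and no measured value. A further 23 genes of the RefSeq table have symbols of this kind but no probe set of their own under that name, among them nde1, which encodes a mitochondrial NADH dehydrogenase, and 6 genes of the mitochondrial genome. These were not analysed here, apart from the shared probe set of cox1101 and cox1102, whose signals are given at the end.

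As background, the respiratory chain passes electrons from NADH and succinate through ubiquinone, the cytochrome bc1 complex (complex III) and cytochrome c to cytochrome c oxidase (complex IV), which reduces oxygen. The proton gradient this builds drives the ATP synthase. Fission yeast has no complex I, and single-subunit NADH dehydrogenases and succinate dehydrogenase (complex II) feed electrons into ubiquinone. It ferments glucose readily, and its respiratory subunits come from both genomes, with most encoded in the nucleus. Atf1 is a bZIP transcription factor that acts under the stress-activated MAP kinase Sty1.

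Total RNA was hybridised to Affymetrix yeast arrays in 2 groups of 2 arrays, labelled as biological replicates. The control strain is labelled wild type and carried the empty overexpression vector, and the other strain is labelled Atf1-OP. The promoter of the vector, the parental genotype beyond these labels, the medium and the growth stage are not stated in the sources used. Values below are log2 signals, quantile normalized over the S. pombe probe sets, and a difference is always Atf1 overexpression minus control. The atf1 signal was 6.13 and 6.42 on the control arrays and 6.83 and 7.37 on the overexpression arrays, a difference of 0.83 ± 0.20 (SE; limma adjusted p = 0.0273).

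The labelling and hybridization controls of the arrays differed between the groups as well. Hybridization controls had a mean difference of -1.02 in the deposited log2 values and were lower on all 27 probe sets, and ribosomal RNA of S. pombe, read by 7 probe sets, had a mean difference of -0.66. Poly-A control transcripts had mean differences of 1.56 at the 5′ end, 1.22 in the middle and 0.34 at the 3′ end. In the deposited values the median difference over all tested genes was 0.27, so every direction below is relative to the other genes of the array. The part of these differences in the results below was not tested. With bulk RNA, fewer expressing cells and less RNA per cell cannot be told apart.

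The respiratory genes did not move as a block. Of the 56 members, all of which were tested, 10 fell, 3 rose and 43 did not pass (limma, Benjamini-Hochberg adjusted p under 0.05 over 2857 genes). The falls made up 17.9% of the members, against 11.0% of all tested genes, and the rises 5.36%, against 10.2%. These contrasts depended on the setting. At an adjusted p under 0.10 the falls made up 17.9% of the members and 17.5% of all tested genes, and with signals corrected for gene length the rises made up 12.5% of both. The median difference of the members was -0.03, and that of all tested genes was -0.01. Differences were small: 36 members lay within 0.25 of 0 on the log2 scale, 49 within 0.5, and none reached a 2-fold change. The SE of a member's difference ran from 0.06 to 0.24, with 2 arrays per group limiting the precision. The 3 brightest probe sets were those of sdh1, qcr10 and atp18, with mean control signals of 11.45, 11.44 and 11.34, and the 3 dimmest were those of coq10, cox18 and cox24, with 3.04, 4.66 and 5.11. Probe sets differ in their response, so these levels do not rank the transcripts.

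The arrays of the groups did not overlap for 22 members that were lower under overexpression (39.3%, against 34.4% of all tested genes) and for 13 that were higher (23.2%, against 32.0%). In the other 21 members the arrays overlapped. The genes that fell were cox8, cox9 and cox12 of complex IV, qcr8 and qcr10 of complex III, atp18 of the ATP synthase, the ubiquinone genes coq4 and coq9, and the assembly genes cox17 and atp11. The genes that rose were atp2 and atp17 of the ATP synthase and cbp1. Of the measured genes for catalytic or electron-carrying subunits, atp2 rose, and sdh1, sdh2, cyt1, rip1, cyc1 and atp1 did not pass. When the variance was not allowed to depend on signal level, cbp1 passed and the other 12 calls were lost. On the deposited scale, where the median difference over all tested genes was itself 0.27, the median of the members was 0.23. There 15 members rose (26.8%, against 31.6% of all tested genes) and 5 fell (8.93%, against 4.06%).

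**Figure D1:**
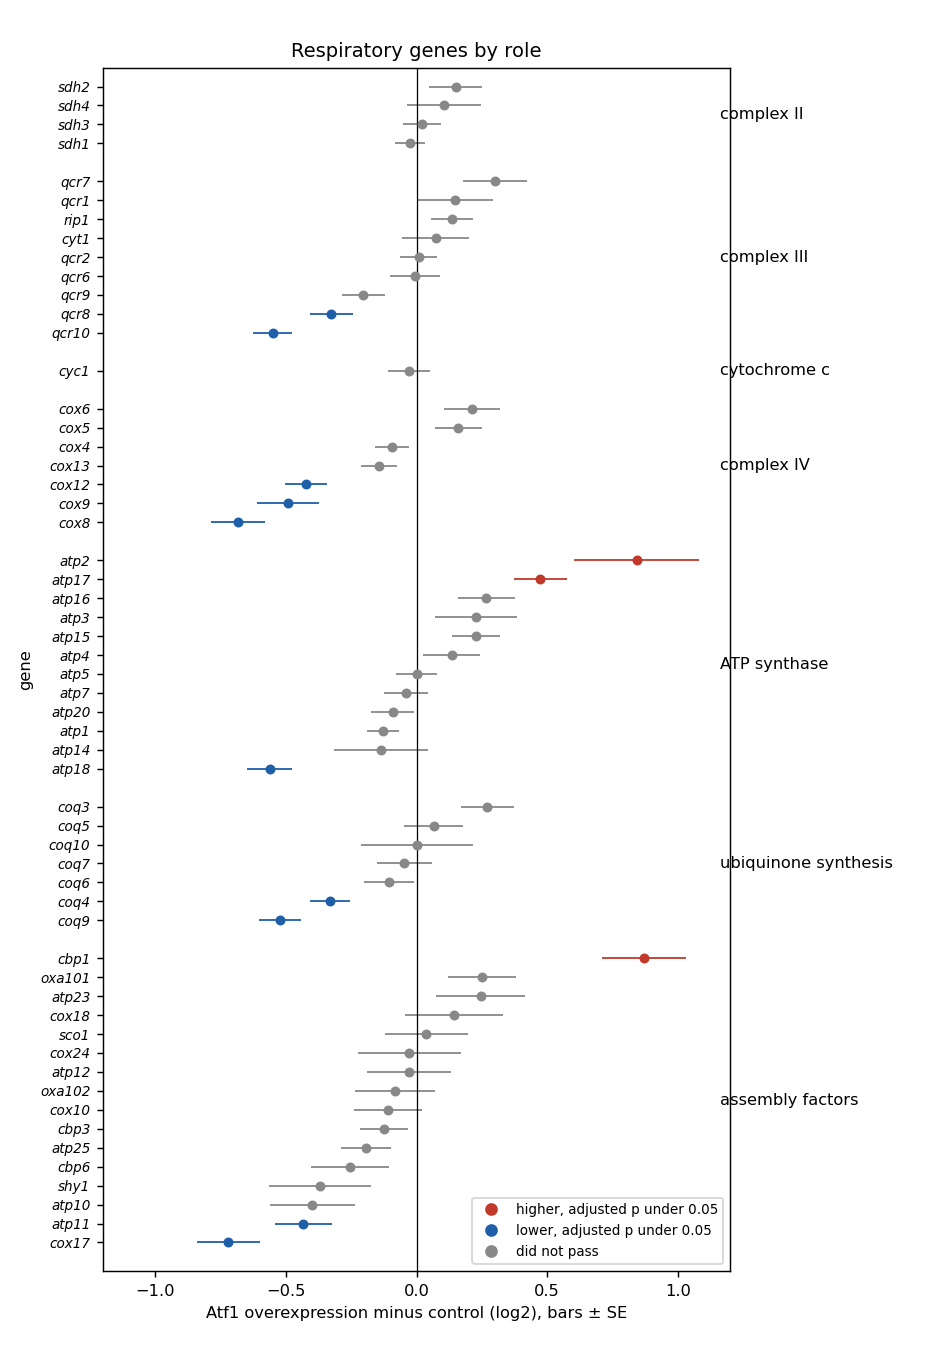
Log2 difference (Atf1 overexpression minus control, horizontal axis, bars ± SE) of the 56 respiratory genes, grouped by role and ordered within each group. The 10 genes that fell lie between -0.72 and -0.33, the 3 that rose lie between 0.47 and 0.87, and all 4 genes of complex II lie close to 0.

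Complex IV held the most falls among the complexes, 3 of its 7 measured genes, and no rise, where 11.0% of all tested genes fell. On the deposited scale cox8 fell and cox5 rose, while cox9 and cox12 did not pass (limma adjusted p of 0.0791 and 0.0625). The median difference of the complex was -0.14, and 0.09 on the deposited scale. The gene cox8 encodes a small nuclear subunit of the oxidase and had signals of 10.27 and 10.33 on the control arrays and 9.77 and 9.47 on the Atf1-OP arrays. Both overexpression arrays lay below both control arrays, and the difference was -0.68 ± 0.10 (SE; limma adjusted p = 0.00789), or 1.61-fold lower. For cox9, another small subunit, the signals were 10.64 and 10.58 against 10.31 and 9.93, a difference of -0.49 ± 0.12 (SE; limma adjusted p = 0.0256). Without overexpression replicate 2 the cox9 difference was -0.29 (limma adjusted p = 0.0161), since the replicates of that group lay 0.38 apart.

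The third gene that fell in this complex was cox12, a small subunit on the outer face of the oxidase. Its signals were 10.92 and 10.90 on the control arrays and 10.58 and 10.39 on the Atf1-OP arrays, a difference of -0.42 ± 0.08 (SE; limma adjusted p = 0.0142). The remaining genes had smaller differences of both signs, -0.14 for cox13, -0.09 for cox4, 0.16 for cox5 and 0.21 for cox6, with adjusted p from 0.166 to 0.309. For cox5, with 9.09 and 9.18 on the control arrays and 9.21 and 9.38 on the Atf1-OP arrays, the arrays did not overlap, yet the gap between the nearest arrays was 0.03. Complex IV therefore did not change as a unit in these data, and its 3 mitochondrially encoded subunits, cox1, cox2 and cox3, were not measured here.

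In complex III, the small subunit genes qcr10 and qcr8 fell (22.2%, against 11.0% of all tested genes). The other 7 measured genes did not pass, and the median was 0.01. The signals of qcr10 were 11.41 and 11.47 on the control arrays and 10.97 and 10.80 on the Atf1-OP arrays. This was the smallest adjusted p of all members, with a difference of -0.55 ± 0.07 (SE; limma adjusted p = 0.00578), or 1.47-fold lower. For qcr8 the signals were 10.97 and 11.03 against 10.78 and 10.57, a difference of -0.33 ± 0.08 (SE; limma adjusted p = 0.0311). Both genes had non-overlapping groups, as did qcr9, at -0.20 (adjusted p = 0.119). That was 33.3% of the complex, against 34.4% of all tested genes. With higher signals under overexpression, rip1 and qcr7 did not overlap either (22.2%, against 32.0%).

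The measured genes for subunits that carry redox centres of complex III, rip1 and cyt1, did not pass. The cytochrome b gene cob1 was not among the members. The Rieske iron-sulfur protein gene rip1 had signals of 9.70 and 9.69 on the control arrays and 9.76 and 9.90 on the Atf1-OP arrays, a difference of 0.14 ± 0.08 (SE; limma adjusted p = 0.247), with 0.06 between the nearest arrays of the groups. The cytochrome c1 gene cyt1 differed by 0.07 ± 0.13 (SE; limma adjusted p = 0.710), and the core protein genes qcr1 and qcr2 by 0.15 and 0.01. The hinge subunit gene qcr6 stood at -0.01, and qcr7 at 0.30 (adjusted p = 0.119), the highest value of the complex. Cytochrome c itself, cyc1, which carries electrons from complex III to complex IV, had signals of 10.53 and 10.54 against 10.60 and 10.41. Its overexpression arrays lay on both sides of the controls, and its difference was -0.03 ± 0.08 (SE; limma adjusted p = 0.825).

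Complex II, the succinate dehydrogenase that belongs to both the respiratory chain and the citric acid cycle, had no gene that passed. The flavoprotein gene sdh1 had nearly level signals, 11.45 and 11.44 on the control arrays and 11.44 and 11.41 on the Atf1-OP arrays, a difference of -0.02 ± 0.06 (SE; limma adjusted p = 0.798). The iron-sulfur subunit gene sdh2 stood at 8.69 and 8.75 against 8.76 and 8.99, which gave 0.15 ± 0.10 (SE; limma adjusted p = 0.310). The membrane anchor gene sdh3 differed by 0.02 (adjusted p = 0.852). The probe set annotated sdh4 differed by 0.11 (adjusted p = 0.615), and RefSeq now gives its gene the symbol tim18, with sdh4 as a synonym. The median of the complex was 0.06.

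The ATP synthase had calls of both signs, at shares near those of all tested genes. Of 12 measured genes, 2 rose (16.7%, against 10.2% of all tested genes) and 1 fell (8.3%, against 11.0%). The other 9 did not pass, and the median was 0.07. The gene atp2, which encodes the catalytic beta subunit, had signals of 9.89 and 9.76 on the control arrays and 10.23 and 11.11 on the Atf1-OP arrays. Both overexpression arrays were higher, but they lay 0.88 apart, and the difference was 0.84 ± 0.24 (SE; limma adjusted p = 0.0431), or 1.79-fold. Without overexpression replicate 2 it was 0.42 (limma adjusted p = 0.0285), and without overexpression replicate 1 it was 1.26 (limma adjusted p = 0.00120). The alpha subunit gene atp1, whose product forms the catalytic hexamer with that of atp2, had signals of 10.80 and 10.81 against 10.66 and 10.69. Its difference was -0.13 ± 0.06 (SE; limma adjusted p = 0.167), of the opposite sign. It passed as lower without overexpression replicate 1 (adjusted p = 0.0390), without overexpression replicate 2 (0.0386) and with the length correction (0.0313), and stood at 0.11 on the deposited scale (0.285).

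The other gene that rose in the ATP synthase was atp17, a small subunit of the membrane sector. Its signals were 8.49 and 8.44 on the control arrays and 8.83 and 9.05 on the Atf1-OP arrays, a difference of 0.47 ± 0.10 (SE; limma adjusted p = 0.0194), or 1.39-fold. In contrast atp18, another small membrane-sector subunit, stood at 11.31 and 11.37 against 10.90 and 10.66, a difference of -0.56 ± 0.09 (SE; limma adjusted p = 0.00793). The central stalk genes atp3 (gamma), atp16 (delta) and atp15 (epsilon) had differences of 0.23, 0.27 and 0.23, with adjusted p of 0.320, 0.115 and 0.116. With the length correction atp15 (0.34, limma adjusted p = 0.009) and atp16 (0.35, limma adjusted p = 0.0382) passed as higher, and atp3 did not pass. The peripheral stalk genes atp4, atp5 and atp7 stood at 0.13, 0.00 and -0.04, with adjusted p from 0.396 to 0.998. The membrane-sector gene atp20 stood at -0.09 (adjusted p = 0.449).

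For atp14 the overexpression arrays disagreed, at 8.73 and 9.36 around control signals of 9.14 and 9.21. Its difference was -0.14 with all arrays (limma adjusted p = 0.615), -0.43 without overexpression replicate 2 (limma adjusted p = 0.0237) and 0.17 without overexpression replicate 1 (limma adjusted p = 0.113). The subunits atp6, atp8 and atp9 of the mitochondrial genome were not measured here.

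Of 7 measured genes of ubiquinone synthesis and binding, coq4 and coq9 fell (28.6%, against 11.0% of all tested genes). None rose, 5 did not pass, and the median was -0.05. Coq9 is a lipid-binding protein that assists the hydroxylase Coq7. The coq9 signals were 9.32 and 9.37 on the control arrays and 8.85 and 8.79 on the Atf1-OP arrays, with replicates closer to each other than the groups, and the difference was -0.52 ± 0.08 (SE; limma adjusted p = 0.00793). The product of coq4 is needed for ubiquinone synthesis, and its signals were 9.46 and 9.49 against 9.18 and 9.12, a difference of -0.33 ± 0.08 (SE; limma adjusted p = 0.0234).

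The hydroxylase genes coq6 and coq7 stood at -0.10 and -0.05 and the methyltransferase genes coq3 and coq5 at 0.27 (adjusted p = 0.0944) and 0.07. The gene coq10, for a ubiquinone-binding protein, had level signals near background. They were 2.93 and 3.14 on the control arrays and 3.01 and 3.07 on the Atf1-OP arrays, a difference of 0.00. Background was 3.25 and 3.33 on the control arrays and 2.67 and 2.63 on the Atf1-OP arrays. The gene therefore exceeded background, and entered the test, only through the lower cutoff of the Atf1-OP arrays. No fold is given for coq10.

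Among 16 assembly and accessory genes, cox17 and atp11 fell (12.5%, against 11.0% of all tested genes) and cbp1 rose (6.25%, against 10.2%). The other 13 did not pass, and the median was -0.10. Cox17 is the copper chaperone that supplies complex IV. Its signals were 10.60 and 10.60 on the control arrays and 10.08 and 9.69 on the Atf1-OP arrays, and its difference of -0.72 ± 0.12 (SE; limma adjusted p = 0.0102), or 1.65-fold lower, was the largest fall among the members. The gene sco1, whose product acts beside Cox17 in copper delivery, had signals of 6.60 and 6.49 against 6.42 and 6.75. The arrays of sco1 overlapped, and its difference was 0.04 (limma adjusted p = 0.887). The heme synthesis gene cox10 stood at -0.11 and shy1, the counterpart of human SURF1, at -0.37 (adjusted p = 0.208), with signals of 5.28 and 5.44 against 5.17 and 4.81.

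Of the ATP synthase assembly genes, atp11, which encodes a chaperone of the catalytic head, had signals of 7.86 and 7.89 on the control arrays and 7.52 and 7.36 on the Atf1-OP arrays. Its difference was -0.43 ± 0.11 (SE; limma adjusted p = 0.0306), and without overexpression replicate 2 the adjusted p was 0.0800. Its partner chaperone gene atp12 stood at -0.03, atp10 at -0.40 (adjusted p = 0.117) and atp23 at 0.25 (adjusted p = 0.322). The membrane insertase genes oxa101, oxa102 and cox18 differed by 0.25, -0.08 and 0.14. The genes cbp3 and cbp6, which in budding yeast act in cytochrome b synthesis, stood at -0.12 and -0.25. Those of atp25 and cox24, whose budding yeast counterparts act in mitochondrial gene expression, stood at -0.19 and -0.03.

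The largest difference of all members belonged to a gene that is not respiratory. The S. pombe gene cbp1 has the RefSeq synonym abp1 and encodes a centromere-binding protein related to CENP-B. It shares its symbol with a budding yeast gene of cytochrome b mRNA stability. Its signals were 5.22 and 5.20 on the control arrays and 6.01 and 6.16 on the Atf1-OP arrays, a difference of 0.87 ± 0.16 (SE; limma adjusted p = 0.0133), or 1.83-fold. Without overexpression replicate 2 its adjusted p was 0.0757. Without cbp1, 2 of 55 respiratory genes rose (3.64%, against 10.2% of all tested genes) and 10 fell (18.2%, against 11.0%), with a median of -0.03.

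**Figure D2:**
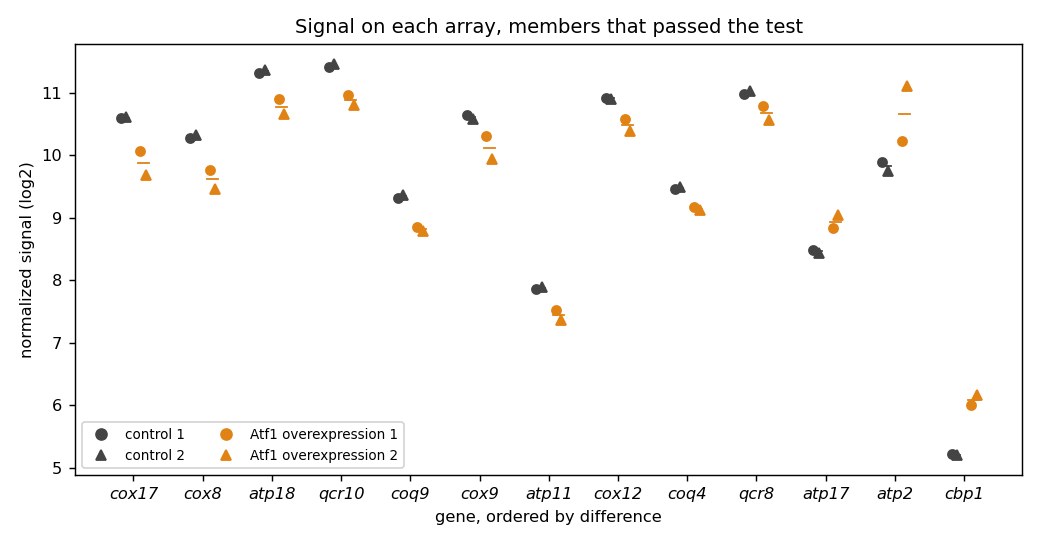
Normalized log2 signal (vertical axis) on each of the 4 arrays for the 13 members that passed, ordered by difference, with short lines at the group means. The control arrays lie close together for each gene, and overexpression replicate 2 lies farther from the control mean than replicate 1 for all 13.

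The second overexpression array lay farther from the control mean than the first in each of the 10 genes that fell and the 3 that rose. Among all genes that passed this was so for 77.8% of the 315 falls and 65.1% of the 292 rises. Leaving out a control array takes the spread from the overexpression arrays alone, and far fewer genes then passed over the whole array as well. Without control replicate 1 none of the 13 passed, with adjusted p from 0.0567 to 0.169, and without control replicate 2 none passed, with adjusted p from 0.0681 to 0.216. All 13 kept their sign in both fits, and their differences stayed between 0.914 and 1.10 times those with all arrays.

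Gene length ran parallel to the falls. The members were shorter than most genes, with a median length of 1182.5 bp, where that of all tested genes was 1875 bp, and 48 of the 56 lay below that median. The 10 genes that fell had a median length of 633 bp, from 479 bp for atp18 to 1349 bp for atp11. Below 700 bp, a limit chosen after the values were seen, 6 of 9 members fell (66.7%), against 31.0% of the 158 tested genes of that length. These 6 were cox8, cox9, cox12, cox17, qcr10 and atp18, and the 3 that did not pass were atp15, atp20 and sdh4. Among the 953 shortest tested genes the gap was smaller, with 10 of 42 members that fell (23.8%) against 15.5% of all 953. From 700 bp upwards 4 of 47 members fell (8.5%), against 9.9% of 2699 tested genes. Across genes, the Pearson correlation of the difference with log2 gene length was 0.23 for the 56 members and 0.15 for all 2857 tested genes, and genes of 1 array share its labelling. With each array corrected by a loess curve on gene length, an alternative added after the values were seen, all 13 calls remained, with adjusted p up to 0.0327. In all, 11 members then fell (19.6%, against 13.3% of all tested genes) and 7 rose (12.5%, against 12.5%), and the median of the members was 0.03, against 0.00. The added rises were atp15, atp16, coq3 and qcr7, and the added fall was atp1. The cox8 difference was then -0.55, that of cox17 -0.56 and that of atp18 -0.40.

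**Figure D3:**
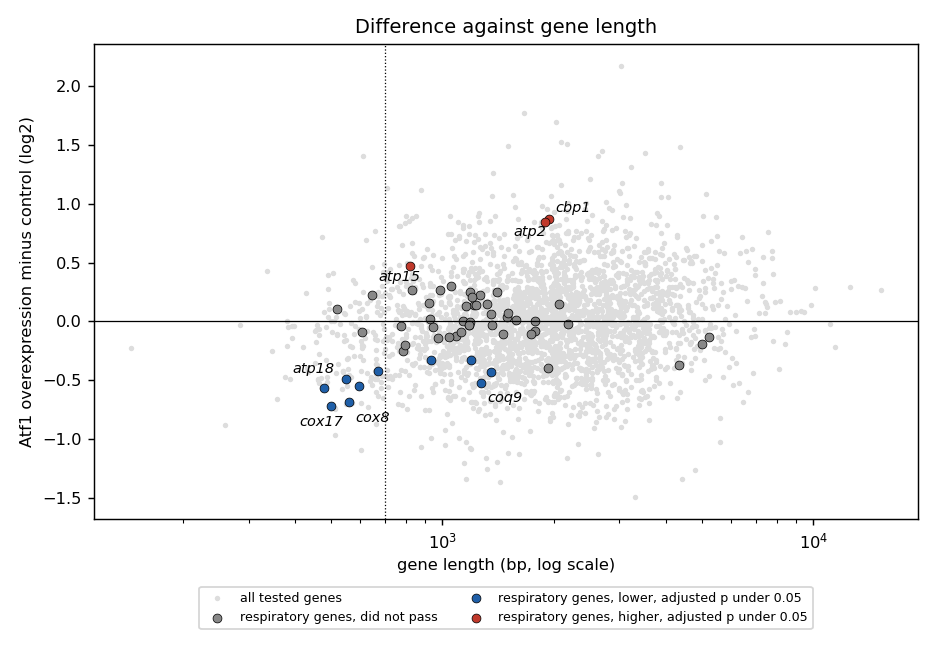
Log2 difference (Atf1 overexpression minus control, vertical axis) against gene length in bp (log scale) for all 2857 tested genes and the 56 respiratory genes. To the left of the dotted line at 700 bp lie 9 respiratory genes, of which 6 fell, while the 3 that rose are longer.

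Other mitochondrial gene lists were set beside the respiratory genes. Of 12 measured genes of the pyruvate dehydrogenase complex and the citric acid cycle, 5 rose and none fell, with a median of 0.20, against 10.2% of all tested genes that rose. Dihydrolipoamide dehydrogenase, dld1, which serves several of these enzymes, had signals of 10.39 and 10.39 on the control arrays and 10.94 and 11.03 on the Atf1-OP arrays, a difference of 0.60 ± 0.07 (SE; limma adjusted p = 0.00350). The acetyltransferase gene lat1 of pyruvate dehydrogenase differed by 0.70 and the isocitrate dehydrogenase gene idp1 by 0.29, while idh1 and kgd2 rose by 0.36 and 0.29. The 5 rises did not hold when either control array was left out, where far fewer genes passed over the whole array as well. Without a variance trend dld1 alone of the 5 passed. Whether this list differs from the respiratory genes was not tested. In the deposited values 10 of the 12 rose, where 31.6% of all tested genes rose and their median difference was 0.27.

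Of 25 measured genes of mitochondrial protein import, 5 fell (20.0%, against 11.0% of all tested genes) and 3 rose, where 10.2% of all tested genes rose, with a median of -0.16. On the deposited scale 6 of the 25 rose and 1 fell, where 31.6% of all tested genes rose and 4.06% fell. The calls with all arrays were lost without a variance trend. The falls were tom20 (-0.63), tom7 (-0.60), tim8 (-0.46), tim9 (-0.42) and tom22 (-0.30), which encode receptors, a small channel subunit and small chaperones of the intermembrane space. The rises were mge1 (0.92), tim54 (0.74) and tom70 (0.35). The 15 measured genes of a list of other respiratory functions had a median of -0.15. Lower were ppr7 (-0.81) and mss51 (-0.71), 13.3% against 11.0% of all tested genes. The prohibitin gene phb1 (0.35) was higher, 6.67% against 10.2%. Of the 20 genes that passed in the citric acid cycle, import, other respiratory, Php and spore lists, ppr7 alone passed without control replicate 1, mei4 alone without control replicate 2, and 9 without overexpression replicate 2. Without a variance trend 3 of the 20 passed, dld1, bgs2 and isp3. On the deposited scale the medians were 0.10 for import and 0.19 for the other respiratory functions. The ADP/ATP carrier gene anc1, which exchanges the product of the ATP synthase, had signals of 11.35 and 11.34 against 11.20 and 11.42, a difference of -0.04 (limma adjusted p = 0.777).

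The Php proteins bind CCAAT sites and regulate respiratory genes in fission yeast. Of their 4 genes, php2 alone fell, where 11.0% of all tested genes fell. The gene php2 had signals of 6.63 and 6.89 on the control arrays and 6.20 and 6.04 on the Atf1-OP arrays. Its difference was -0.64 ± 0.16 (SE, limma adjusted p = 0.0262). It did not pass in any fit with 1 of the 4 arrays left out. The other 3 did not pass, at -0.37 for php5, -0.20 for php4, which encodes the repressor subunit used under iron shortage, and 0.34 for php3. As a check for sporulating cells, 7 of 8 spore markers were tested, with a median of -0.34. The markers bgs2 (-0.54) and mei4 (-0.79) fell, 28.6% against 11.0% of all tested genes. The marker isp3, above background on 1 control array, rose (0.81), 14.3% against 10.2%. Several markers lay near background, with a median level of 3.72 for the list. On the control arrays mfr1 was above background on 0 and spo6 on 1. Normalized background was 3.25 and 3.33 on the control arrays and 2.67 and 2.63 on the Atf1-OP arrays.

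**Figure D4:**
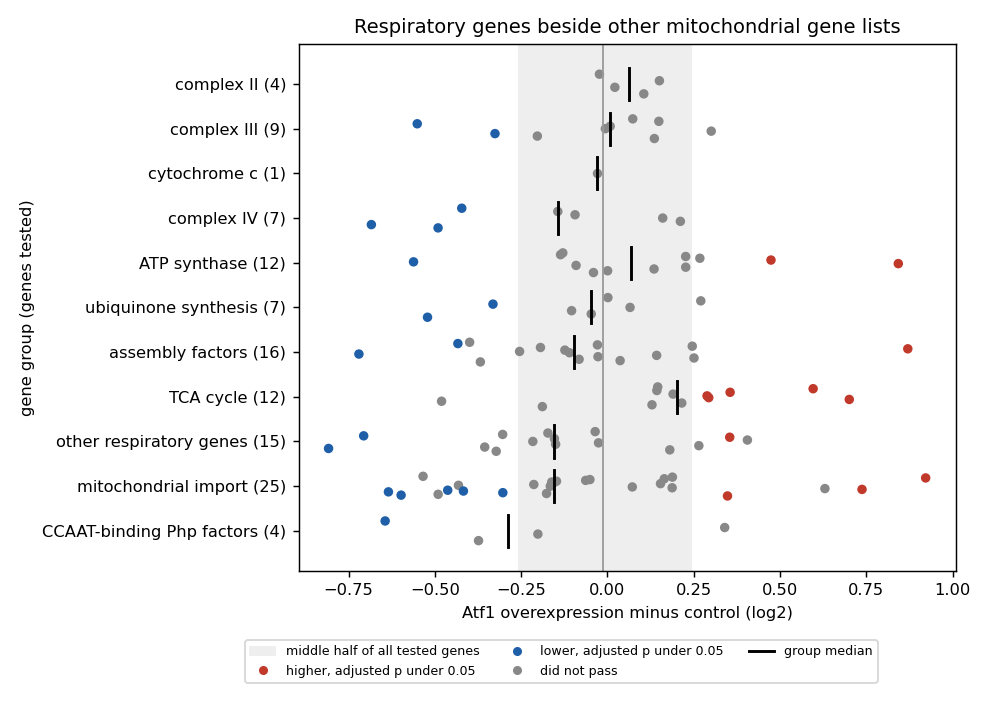
Log2 difference (horizontal axis) of each tested gene in the 7 role groups of respiratory genes and in 4 other mitochondrial lists, with group medians as vertical bars and the range from the 25th to the 75th percentile of all tested genes in grey. The citric acid cycle list has a median of 0.20, and the role groups have medians between -0.14 and 0.07.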

How the data were processed

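RNA of 2 control and 2 Atf1-OP samples was biotin-labelled and hybridised, per the labels' protocols. The range of the deposited values showed them to be log2 probe set signals. How the authors summarised and normalized them is not stated in the labels. Probe sets were named from the platform annotation and RefSeq (ASM294v3), which also gave gene lengths. Array medians over S. pombe probe sets spanned 0.28, so signals were quantile normalized over these, including 20 probe sets of several genes. Background was set for each array at the 95th percentile of its S. cerevisiae probe sets. The 2857 genes exceeding it on at least 2 of 4 arrays were tested. The test was limma (version 3.58.1, R 4.3.3; linear model, empirical Bayes with a variance trend), with p-values adjusted by Benjamini and Hochberg over all tested genes and a threshold of 0.05. It was tested on simulated data, in which spreads were assigned to genes at random and did not depend on signal level. That trial therefore cannot judge the variance trend.

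The members and lists were chosen with earlier results of these data known. The rule for names took, in each role group, every member that passed, otherwise the largest rise, largest fall and smallest difference, members at background, the 3 brightest and 3 dimmest, atf1, and up to 3 genes with the smallest p of each other list. The other members, and tom7, tom22, mge1, tim54, tom70, idh1, kgd2, php4 and anc1, were named after their values were seen. As alternatives, the scaling, the background filter, the variance model, the probe set rule and the threshold were changed, a replicate block was added, and each array was left out in turn, which takes the spread from the group that still has both arrays. Plots used matplotlib 3.10.9 and Python 3.11.15. The labels name the replicates as biological, and no shared batch is stated.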

Additional observations from a re-analysis of the deposited data

Results flagged for a closer look

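The arrays carry control probe sets named for the S. pombe counterpart of RIP1, which by that name read rip1 at several places along its transcript and which the comparison above did not use. In the deposited log2 values the 3′ probe set stood at 10.57 and 10.57 on the control arrays and 10.77 and 11.02 on the Atf1-OP arrays, a difference of 0.33, with both overexpression arrays higher. The middle probe set stood at 8.82 and 8.73 against 8.97 and 9.55, a difference of 0.48. The 5′ probe set overlapped between groups, at 7.44 and 7.39 against 7.36 and 7.97, a difference of 0.25. The rip1 probe set used above had a difference of 0.39 on the same scale, where the median difference over all tested genes was 0.27, so the readings of this gene ran from 0.25 to 0.48. Array controls named for other genes differed too, with both signs. Those for TFIID differed by 0.73 (3′), 0.39 (middle) and -0.32 (5′), and those for ACT1 by -0.09, 0.08 and 0.20. Differences of this size were therefore not particular to the rip1 controls.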

How the results depend on the processing

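All 13 calls kept their direction with median centring, the deposited values, cyclic loess, the length correction and each array left out in turn. The other alternatives could not turn a direction, since they left each member's difference as it was. These were the variance models, the replicate block, the threshold, the background filters and leaving out cbp1. The mean of probe sets could not either, with 1 probe set per member. All 13 passed with median centring, cyclic loess, the length correction, other background filters, the robust trend and the mean of probe sets, 8 passed with the deposited values, and the losses without a variance trend or without an array are given above. Cyclic loess, the length correction and leaving out cbp1 were chosen after the data were seen. The causes of the changes listed here were not tested. With 2 arrays per group, directions of members near 0 depended on the setting.

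With median centring the median of the assembly genes was 0.0029, and signs turned for atp12 (0.19), coq5 (-0.0059), cox24 (0.29), oxa102 (0.12), qcr6 (0.025) and sdh1 (0.013). With the deposited values 1019 genes passed, 903 higher and 116 lower, and 15 members rose (26.8%, against 31.6%) and 5 fell (8.93%, against 4.06%), with a median of 0.23. Medians were then 0.22 for assembly, 0.092 for complex IV, 0.070 for the Php genes, 0.099 for import and 0.19 for other respiratory functions. Signs turned there for atp1 (0.11), atp12 (0.41), atp14 (0.086), atp20 (0.14), atp7 (0.18), cbp3 (0.052), cbp6 (0.11), coq6 (0.052), coq7 (0.10), cox10 (0.13), cox13 (0.092), cox24 (0.51), cox4 (0.16), cyc1 (0.15), oxa102 (0.34), qcr6 (0.25), qcr9 (0.0034), sdh1 (0.23) and shy1 (0.15). Without a variance trend 165 genes passed, 95 higher and 70 lower. There 1 member rose (1.79%, against 3.33% of all genes) and 0 fell (0%, against 2.45%). The atf1 difference (0.83) then had a limma adjusted p of 0.0704. At an adjusted p under 0.10, 932 genes passed and 500 fell, with 4 members that rose (7.14%, against 15.1% of all genes) and 10 that fell (17.9%, against 17.5%). With the length correction 7 members rose (12.5%, against 12.5% of all genes) and 11 fell (19.6%, against 13.3%), and atp12 (0.018), atp20 (0.031), atp7 (0.048), coq10 (-0.0037), coq7 (0.020), cox24 (0.031), cyc1 (0.029) and qcr6 (0.052) turned sign, as did atp7 (0.0081), coq10 (-0.032), cox24 (0.021), qcr6 (0.043) and sdh1 (0.065) with cyclic loess.

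Same-numbered arrays did not deviate together (correlation of deviations 0.04), so the numbers were not treated as pairs. With a replicate block 5 members rose (8.93%, against 14.5% of all genes) and 11 fell (19.6%, against 15.3%).

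With each array left out in turn, 53 to 682 genes passed, 39 to 315 higher and 14 to 367 lower, 0 to 7 members rose and 0 to 15 fell, and atf1 ranged from 0.58 to 1.14. Differences crossed 0 for atp5 (-0.048 to 0.051), atp7 (-0.16 to 0.063), coq10 (-0.11 to 0.098), coq5 (-0.029 to 0.17), cox24 (-0.21 to 0.17), qcr2 (-0.0088 to 0.022), qcr6 (-0.11 to 0.10), coq7 (-0.11 to 0.016), sco1 (-0.14 to 0.21), atp14 (-0.43 to 0.17), atp12 (-0.12 to 0.059), atp3 (-0.019 to 0.46), cyc1 (-0.14 to 0.062), cyt1 (-0.089 to 0.23), qcr1 (-0.038 to 0.33), sdh3 (-0.044 to 0.071) and sdh4 (-0.037 to 0.25).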

Other observations

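One probe set is shared by cox1101 and cox1102, which encode copper-binding assembly factors of complex IV, and so could not be given to either gene. As deposited, on the log2 scale, it read 8.53 and 8.55 on the control arrays and 8.54 and 8.64 on the Atf1-OP arrays. The groups overlapped, with a difference of 0.05, below the median difference of 0.27 over all tested genes.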
